A study of Mus musculus with 4 samples.

Results

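The Nuclear factor I (NFI) family was followed in whole mouse embryos at embryonic day 9.0 (E9.0), in 2 Gcnf-/- embryos and 2 wt embryos. Gcnf is the former name of Nr6a1, an orphan nuclear receptor that represses transcription, and Gcnf-/- embryos carry the homozygous mutation in every cell. One Affymetrix mouse whole-genome array was hybridised per embryo, and the study's methods give a collection window that reaches past the labelled stage. The family was measured by 23 probe sets of the 45037 tested, namely every probe set that the platform annotation gives to Nfia, Nfib, Nfic or Nfix alone. Nfib had 7, Nfia 6, Nfix 5 and Nfic 5, and 0 further probe sets carried one of these names beside another gene's. The family was picked because Nfib was higher in Gcnf-/- embryos on these same arrays, so all values of the 4 genes in this comparison are descriptions and carry no test.

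NFI proteins are transcription factors that bind DNA as homodimers or heterodimers, through a conserved amino-terminal domain that recognises a palindrome built from the short core TTGGC. The carboxy-terminal parts differ among the 4 genes and by splicing, and can activate or repress. In the mouse the family is known for the development of glia (Nfia, Nfib), for maturation of the lung (Nfib), for timing in neural and muscle progenitors (Nfix) and for tooth roots (Nfic). Nr6a1 itself binds a direct repeat of AGGTCA without a spacer.

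Signals are given on the log2 scale after robust multi-array averaging (RMA), and a log2 difference is Gcnf-/- minus wt. Signals are read within a probe set only, since probes differ in brightness. In a whole embryo, fewer cells of a type and less RNA per cell cannot be told apart. Arrays of Gcnf-/- embryos correlated at 0.998 and arrays of wt embryos at 0.997 across probe sets, against 0.993 to 0.995 between genotypes. Wt replicate 1 was a female, with a signal of 13.11 for Xist against 6.44 to 6.68 in the other embryos. The same array had the lowest mean signal for the poly-A RNA spikes, 9.69 against 10.39 to 10.48. The 18S ribosomal RNA probe sets averaged 10.83 and 10.74 in Gcnf-/- embryos and 9.45 and 9.99 in wt embryos. The part of embryo sex and of these control signals in the values below was not tested beyond leaving out wt replicate 1. The 5 probe sets of Nr6a1 stood at log2 differences of 0.05 to 0.56 with 0 called, and as the sources used here do not place them against the mutation, they check no label.

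Nfib was the member with the widest gap between the genotypes, and 5 of its 7 probe sets were 3.42-fold to 4.96-fold higher in Gcnf-/- embryos. Its brightest probe set, 1454834_at, read 8.80 and 8.71 in Gcnf-/- embryos and 6.54 and 6.89 in wt embryos. Both Gcnf-/- embryos were above both wt embryos, with 1.82 between the nearest pair. The log2 difference was 2.04 ± 0.13 (SE from limma, n = 2 per genotype), or 4.11-fold. Only 16 of the 18193 genes measured by their brightest probe set had a higher value, as a description of the value that chose the family.

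The other 4 probe sets with a wide gap showed the same separation. The signal of 1448288_at was 8.35 and 8.30 in Gcnf-/- embryos and 5.76 and 6.53 in wt embryos. For 1427680_a_at the signals were 8.21 and 7.93 in Gcnf-/- embryos and 5.48 and 6.04 in wt embryos. In these 2 probe sets wt replicate 1 was the lowest array, and the wt embryos lay 0.77 and 0.56 apart. The signal of 1434102_at was 7.71 and 7.70 in Gcnf-/- embryos and 5.78 and 5.79 in wt embryos. For 1438244_at it was 7.66 and 7.52 in Gcnf-/- embryos and 5.88 and 5.75 in wt embryos. Across the 5 probe sets the replicates of a genotype differed by at most 0.27 in Gcnf-/- embryos and 0.77 in wt embryos, and the lowest Gcnf-/- signal exceeded the highest wt signal by 1.64 to 1.92. Without the female wt replicate 1, which leaves 3 male embryos, the log2 differences of these 5 were 1.79 to 2.03.

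Another 2 probe sets that the annotation gives to Nfib did not show that gap. The signal of 1434101_at was 6.13 and 5.99 in Gcnf-/- embryos and 5.70 and 5.61 in wt embryos, a log2 difference of 0.40 ± 0.08 (SE). For 1416293_at the signals were 6.41 and 6.68 in Gcnf-/- embryos and 6.46 and 6.59 in wt embryos, so that the genotypes overlapped, and the log2 difference was 0.02 ± 0.12. Each shares its source sequence record in the annotation with a probe set that had a wide gap. The first is annotated from the same record as 1434102_at and 1454834_at, the other from the same record as 1448288_at. Which transcripts of Nfib each of the 7 probe sets reads is not given in the sources used here. Averaged over all 7, the log2 difference of Nfib was 1.52.

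**Figure D1:**
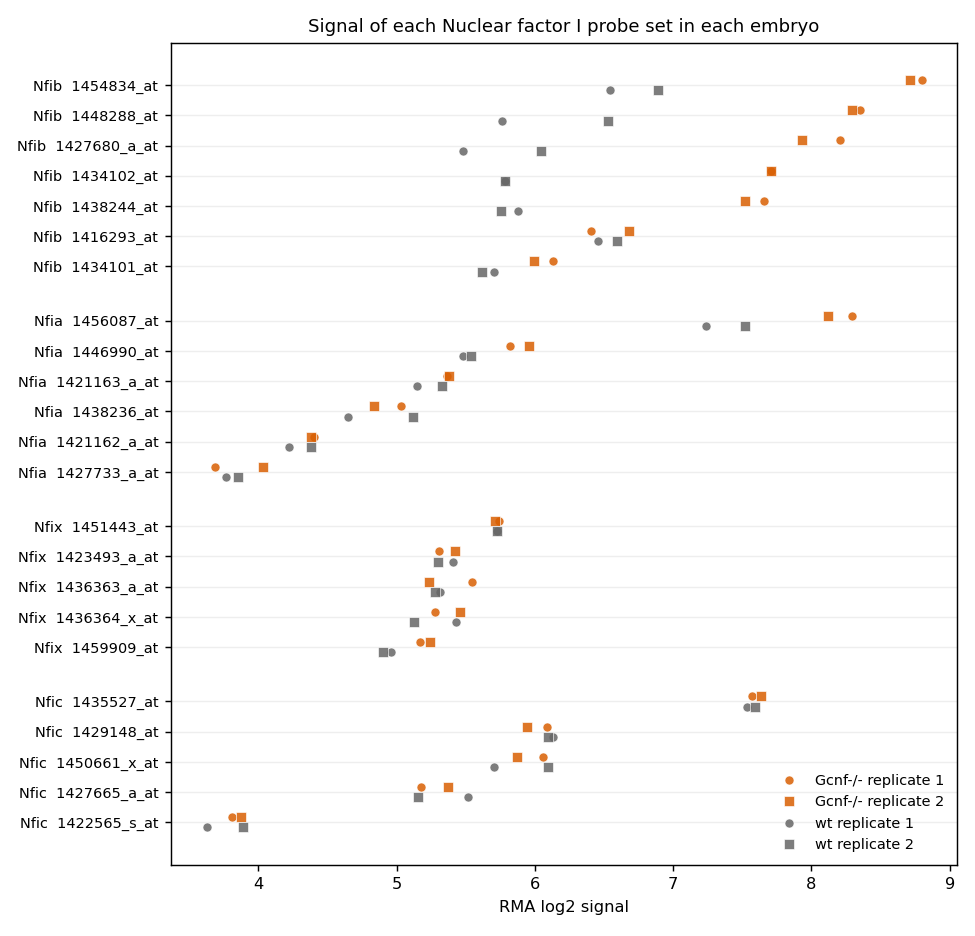
RMA log2 signal (horizontal axis) of each of the 23 Nuclear factor I probe sets (rows, by gene and then by mean signal) in each embryo; orange marks are Gcnf-/-, grey marks are wt, circles and squares are replicates 1 and 2, and the genotypes are drawn slightly apart in height so that marks do not hide each other. For 5 of the 7 Nfib probe sets the Gcnf-/- marks lie at least 1.64 to the right of the wt marks, while most rows of Nfix and Nfic overlap.

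Nfia had the next widest gap, and it was carried by 1 probe set. The brightest, 1456087_at, read 8.29 and 8.12 in Gcnf-/- embryos and 7.24 and 7.52 in wt embryos. The genotypes did not overlap, and the log2 difference was 0.83 ± 0.12 (SE), or 1.78-fold, short of 2-fold. Leaving out 1 embryo at a time it lay between 0.69, without wt replicate 1, and 0.97, without wt replicate 2. The other 5 Nfia probe sets had log2 differences of 0.05 to 0.38. Among them 1446990_at was the highest, at 5.82 and 5.96 in Gcnf-/- embryos and 5.48 and 5.54 in wt embryos. All 5 were dimmer than the median probe set of the array, with mean signals of 3.83 to 5.70. Averaged over the 6 probe sets, the log2 difference of Nfia was 0.26.

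Nfix and Nfic stood close to 0. The brightest Nfix probe set, 1451443_at, read 5.74 and 5.71 in Gcnf-/- embryos and 5.72 and 5.73 in wt embryos, a log2 difference of 0.00 ± 0.07 (SE). All 5 Nfix probe sets were dimmer than the median probe set, with signals between 4.90 and 5.74. The widest of them was 1459909_at, with 5.17 and 5.24 in Gcnf-/- embryos and 4.96 and 4.90 in wt embryos, a log2 difference of 0.27 ± 0.07 with no overlap. The brightest Nfic probe set, 1435527_at, read 7.57 and 7.63 in Gcnf-/- embryos and 7.53 and 7.59 in wt embryos, so that the genotypes overlapped, and the log2 difference was 0.04 ± 0.07. The 5 Nfic probe sets ran from -0.10 to 0.08. The lowest, 1429148_at, was the one member with both Gcnf-/- embryos below both wt embryos, at 6.09 and 5.94 in Gcnf-/- embryos and 6.13 and 6.10 in wt embryos.

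Over the 23 probe sets, 20 had a log2 difference above 0, 2 below and 1 at 0, with a median of 0.09. Under the study's thresholds, namely 2-fold and an adjusted p no higher than 0.05 in limma, 5 were called higher, all of Nfib, and 0 lower. Over all probe sets tested, 0.304% were called higher, 0.0777% lower and 0.382% in either direction. Since Nfib chose the family, nothing is read from the count of 5. Of the other 16 probe sets, those of Nfia, Nfix and Nfic, 0 were called. Both Gcnf-/- embryos lay above both wt embryos for 11 members (6 of Nfib, 4 of Nfia and 1 of Nfix) and below for 1, 12 without overlap in all. Over all probe sets tested the shares were 23.5% above, 27.3% below and 50.8% in either direction. Only 5 of the 23 had a mean signal over the 4 arrays above that of the median probe set, 3 of Nfib, 1 of Nfia and 1 of Nfic. The 3 of Nfib had wt means of 6.72, 6.15 and 5.76, below that median of 6.84, so their Gcnf-/- signal carried them past it. Because 2 embryos were compared with 2, an exact permutation test of a single value could not go below a two-sided p of 0.333. Without any 1 of the 4 embryos, 0 of the 5 Nfib probe sets passed, although all 5 stayed at least 2-fold higher, at log2 differences between 1.70 (without Gcnf-/- replicate 1) and 2.59 (without wt replicate 2).

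**Figure D2:**
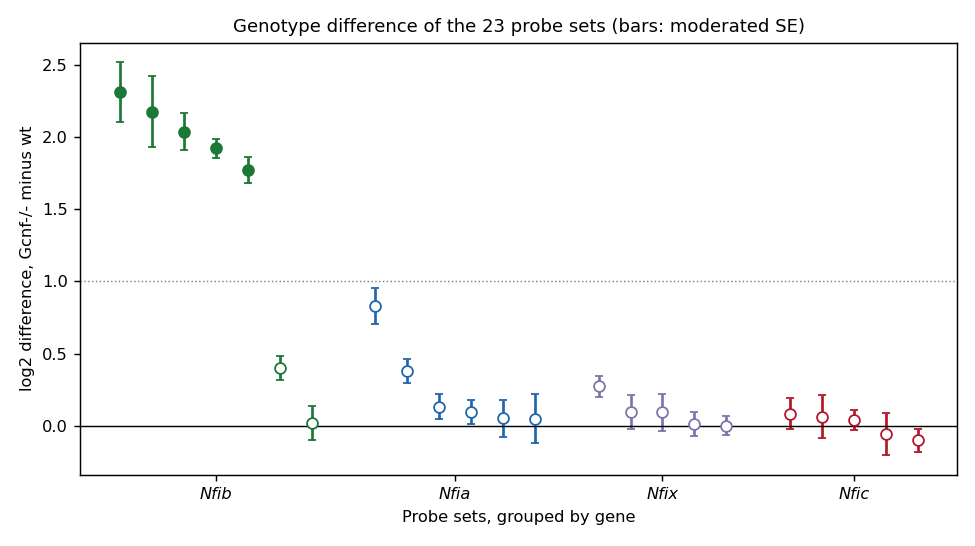
Log2 difference, Gcnf-/- minus wt (vertical axis), of the 23 probe sets grouped by gene (horizontal axis) and ordered by size within a gene; bars show the SE from limma, with 2 embryos of each genotype, filled points met the adjusted p and 2-fold thresholds, and the dotted line marks 2-fold. The 5 filled points are all Nfib, at 1.77 to 2.31, and the highest point of another gene is Nfia at 0.83.

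The chromosomal surroundings of the 4 genes were then read, taking the nearest 3 measured genes on each side in the RefSeq annotation of GRCm38.p6. Of these 24 genes, 1 was called higher and 0 lower, and that gene, 2310067E19Rik, is annotated as a non-coding RNA lying wholly within the span of Nfib. Its brighter probe set, 1438072_at, read 8.57 and 8.04 in Gcnf-/- embryos and 6.78 and 6.78 in wt embryos. The log2 difference was 1.52 ± 0.18 (SE, n = 2 per genotype, limma adjusted p = 0.0430), or 2.87-fold. With each embryo left out in turn it was called in 0 of 4 fits, at log2 differences of 1.26 to 1.79 and limma adjusted p of 0.105 to 0.303. Its other probe set, 1453448_at, stood at 0.44 ± 0.07 and was not called (limma adjusted p = 0.0738). As the gene overlaps Nfib and the strand each probe set reads is not given in the sources used here, its signal and that of Nfib cannot be told apart. Its call and adjusted p are therefore descriptions, like the values of Nfib that chose the family.

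Next along the chromosome, with no overlap with Nfib, the long non-coding RNA gene Gm11266 had a dim probe set at 4.94 and 4.80 in Gcnf-/- embryos and 4.29 and 4.28 in wt embryos. The genotypes did not overlap, but its log2 difference of 0.59 ± 0.08 did not pass (limma adjusted p = 0.0524). The next gene, Gm11267, stood at -0.03. On the other side of Nfib, Mpdz, which encodes a scaffold protein of cell junctions, stood at -0.12, Lurap1l at 0.18 and the pigment enzyme gene Tyrp1 at -0.09. Around Nfia the 6 neighbours ran from -0.27 for E130114P18Rik, which overlaps Nfia in part, to 0.23 for Tm2d1. Around Nfix they ran from -0.15 for Calr, a calcium-binding chaperone, to 0.49 for Dand5, a secreted inhibitor of Nodal that acts in left-right patterning, and Lyl1, a blood transcription factor that overlaps Nfix in part, stood at 0.38. Around Nfic they ran from -0.10 for Ncln to 0.82 for Celf5, an RNA-binding protein, which was not called. Of all genes, read by their brightest probe set, 0.423% were called higher and 0.121% lower.

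**Figure D3:**
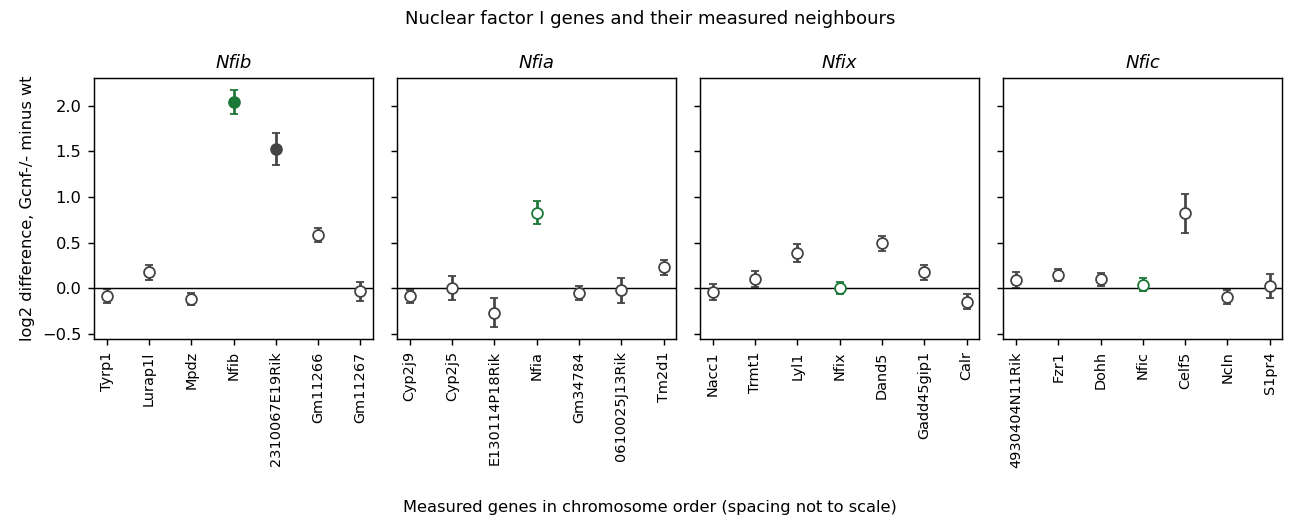
Log2 difference, Gcnf-/- minus wt (vertical axis), of each Nuclear factor I gene (green) and its nearest 3 measured genes on either side (grey) in chromosome order (horizontal axis, spacing not to scale); each gene is shown by its brightest probe set, bars show the SE from limma, with 2 embryos of each genotype and filled points met the thresholds. Beside Nfib at 2.04, the filled point is 2310067E19Rik at 1.52, which lies within Nfib.

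The start regions of the genes at these loci were searched for the sequences that NFI proteins and Nr6a1 are known to bind. RefSeq start windows, 250 bases before to 50 bases after a start, were at hand for 3 of the 4 members, with 1 window for Nfia, 4 for Nfix and 1 for Nfic, and for Gm11266. Both strands were searched. The window of Nfia is shown as that of the member with the next widest gap, and the window of Gm11266 because this gene is the nearest to Nfib outside its span. Capitals mark the NFI core TTGGC, which the window of Nfia does not hold.
Gm11266, chr4:82507739-82508038, plus strand, GRCm38.p6: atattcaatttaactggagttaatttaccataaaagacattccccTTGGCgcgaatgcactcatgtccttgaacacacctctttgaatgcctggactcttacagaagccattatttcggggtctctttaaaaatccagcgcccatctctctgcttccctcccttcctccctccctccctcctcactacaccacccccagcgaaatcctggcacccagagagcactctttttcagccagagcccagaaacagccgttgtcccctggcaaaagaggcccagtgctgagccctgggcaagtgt
Nfia, chr4:97581693-97581992, plus strand, GRCm38.p6: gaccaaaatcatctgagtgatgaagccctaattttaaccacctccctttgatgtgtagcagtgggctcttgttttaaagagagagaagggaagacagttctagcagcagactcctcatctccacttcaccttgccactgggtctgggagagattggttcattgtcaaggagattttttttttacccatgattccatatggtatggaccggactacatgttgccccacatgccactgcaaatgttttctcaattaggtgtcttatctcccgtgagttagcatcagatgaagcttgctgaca

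The Gm11266 window held the core 1 time, and 3 of the 6 windows of members held at least 1, all of Nfix. So short a motif is common, and 46.7% of the 32851 windows of all genes held it. The palindrome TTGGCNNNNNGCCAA was in 0 of the 6 windows of members and in 0.0365% of all windows. The direct repeat AGGTCAAGGTCA was in 0 of the 6 and in 0.00609% of all, and the extended single element TCAAGGTCA, which overlaps it, in 0 of the 6 and in 0.423% of all. These counts describe the letters of these windows only.

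The genes with the profile most like that of Nfib over the 4 arrays were Cpt1a, Sh3gl3, Vgll3, Prmt8 and Esm1, by Euclidean distance between log2 signals centred on the wt mean (0.17 to 0.26). Cpt1a, the enzyme that admits long-chain fatty acids to mitochondria, read 9.06 and 8.89 in Gcnf-/- embryos and 6.85 and 7.25 in wt embryos. Like Nfib, it was lowest in wt replicate 1. Sh3gl3, an endophilin, read 9.89 and 9.90 in Gcnf-/- embryos and 7.62 and 7.87 in wt embryos. Vgll3 (a cofactor of TEAD factors), Prmt8 (an arginine methyltransferase) and Esm1 (a proteoglycan secreted by endothelial cells) had log2 differences of 2.12, 1.92 and 2.04. These genes were selected by their likeness over 4 arrays, and their values are a description.

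Genes that NFI proteins are known to control, together with other glial genes, were spread on both sides of 0. Of the 15 on that list, 8 had log2 differences above 0 and 7 below, with a median of 0.04 against -0.01 over all genes, and 0 were called higher and 0 lower. Fabp7, a brain fatty acid binding protein of radial glia whose promoter NFI proteins bind, had the widest gap. It read 10.59 and 10.34 in Gcnf-/- embryos and 7.94 and 8.84 in wt embryos. The genotypes did not overlap, and the log2 difference of 2.07 ± 0.30 (SE, n = 2 per genotype) missed the threshold (limma adjusted p = 0.0579). It passed in 4 of 11 alternative settings, with adjusted p between 0.0158 and 0.276. Aldh1l1, a folate enzyme of astrocytes, stood at 0.80 ± 0.13 (adjusted p = 0.0678), and Slc1a3, the glutamate transporter GLAST of radial glia, at 0.54 ± 0.07 (adjusted p = 0.0535). Apcdd1, an inhibitor of Wnt signalling that Sox9 and Nfia activate together in glial precursors, was lower. It read 9.29 and 9.25 in Gcnf-/- embryos and 10.17 and 9.99 in wt embryos, and its log2 difference of -0.81 ± 0.09 had a limma adjusted p of 0.0402 but was short of 2-fold. The astrocyte gene Gfap stood at 0.06, Ezh2, a histone methyltransferase that Nfib represses, at -0.09, and Hes1, a Notch effector that Nfia represses, at -0.08. Gfap, Aldh1l1, Aqp4 and S100b were dim, with mean signals of 6.73, 6.48, 5.75 and 5.63 against an array median of 6.84. Whole embryos at E9.0 were measured and not glia, so these values do not report on NFI targets there.

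Regulators and partners of the family were 0 higher and 0 lower by call, with 2 of 7 above 0 and 5 below (median -0.20). Ski, a corepressor that binds NFI proteins, stood at -0.43 ± 0.09 (limma adjusted p = 0.107), and Sox9, which induces Nfia in the spinal cord, at -0.38 ± 0.09 (adjusted p = 0.120). Pax7, upstream of Nfix in muscle, stood at -0.48 ± 0.15 (adjusted p = 0.173) and Notch1 at 0.14. Of 5 genes that depend on Nfix in fetal muscle, or mark that stage, 0 were called and the values ran from -0.07 for Prkcq to 0.16 for Nfatc4. Ckm, which Nfix activates, stood at -0.06, and Myh7, which it represses, at 0.01. Whole embryos at E9.0 were measured and not fetal muscle, so these values do not report on Nfix there. Among 7 other factors that have been named for the CCAAT box, as NFI proteins also were, 0 were called. Cebpa, a regulator of adipocytes and liver, read 8.29 and 7.89 in Gcnf-/- embryos and 6.99 and 7.09 in wt embryos, a log2 difference of 1.05 ± 0.15 (limma adjusted p = 0.0549). Cebpb stood at 0.56, Cebpd at 0.37, Cebpg at -0.23 and the NF-Y subunit genes Nfya, Nfyb and Nfyc between -0.17 and 0.00.

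Markers of the tissues present in a whole embryo were read on the same arrays, and 0 of them were called in either direction. Of the 88 genes on all lists, 18 were higher and 16 lower when the unadjusted limma p was held to 0.05, or 34 of 88. By the same measure 11.9% of all 18193 genes were higher and 11.9% lower. The lists, of related genes as well as tissue markers, were chosen with earlier results of these data known, so nothing is read from that count. All 10 neural progenitor markers were measured, with 3 above 0 and 7 below (median -0.10). Their mean log2 signal was 9.47 to 9.54 in Gcnf-/- embryos and 9.52 to 9.71 in wt embryos. Among them Dbx1 stood at -0.39, Olig2 at -0.80, Sox1 at 0.46 and Prom1 at -0.23. Of 9 somite markers, 3 were above 0 and 6 below (median -0.37), with a mean of 7.24 to 7.43 in Gcnf-/- embryos and 7.54 to 7.86 in wt embryos. Tcf15 stood at -0.37, Meox2 at -1.05, Meox1 at -0.62 and Uncx at -1.17. Meox2 was dim, with signals of 4.78 to 6.31, and Uncx read 7.33 and 6.29 in wt embryos. The 3 above 0 were Pax3 at 0.22, Myf5 at 0.10 and Tbx18 at 0.09. All 8 heart muscle markers were above 0 (median 0.42), with a mean of 11.68 to 11.76 in Gcnf-/- embryos and 11.14 to 11.45 in wt embryos. The highest were Myh6 at 0.63, Tnni1 at 0.58 and Tnnt2 at 0.52. All 7 primitive red cell markers were above 0 (median 0.57), with a mean of 12.25 to 12.37 in Gcnf-/- embryos and 11.76 to 11.97 in wt embryos. Alas2, the first enzyme of haem synthesis, stood at 0.98, Epor at 0.63, Klf1 at 0.57 and Gata1 at 0.63. The globin genes were closer to no difference, with Hbb-bh1 at 0.15, Hba-x at 0.09 and Hbb-y at 0.07. For Hbb-y the genotypes overlapped. Hence heart and red cell markers stood in the same direction as Nfib, at medians of 0.42 and 0.57, and their part in its value was not tested.

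Signal of yolk sac endoderm was strong in all 4 embryos. Of its 9 measured markers 2 were above 0 and 7 below (median -0.16), with Hnf4a at -0.47, Apoa1 at -0.27, Cubn at -0.24 and Amn at 0.18, and a mean of 13.00 to 13.13 in Gcnf-/- embryos and 13.16 to 13.27 in wt embryos. Of 5 measured markers of trophoblast and decidua, 3 were above 0 and 2 below (median 0.10). Plac1 read 11.51 and 11.46 in Gcnf-/- embryos and 10.40 and 10.64 in wt embryos, a log2 difference of 0.96 ± 0.10 (limma adjusted p = 0.0378) that was short of 2-fold. The other 4, Tpbpa, Prl8a2, Prl8a9 and Psg17, had signals between 3.67 and 5.73, and their log2 differences ran from -0.25 to 0.16. Of 7 endothelium markers 3 were above 0 and 4 below (median -0.02), with a mean of 9.13 to 9.18 in Gcnf-/- embryos and 9.21 to 9.28 in wt embryos. Tie1 stood at -0.29 and Emcn at -0.50, against 0.10 for Kdr and 0.08 for Pecam1.

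**Figure D4:**
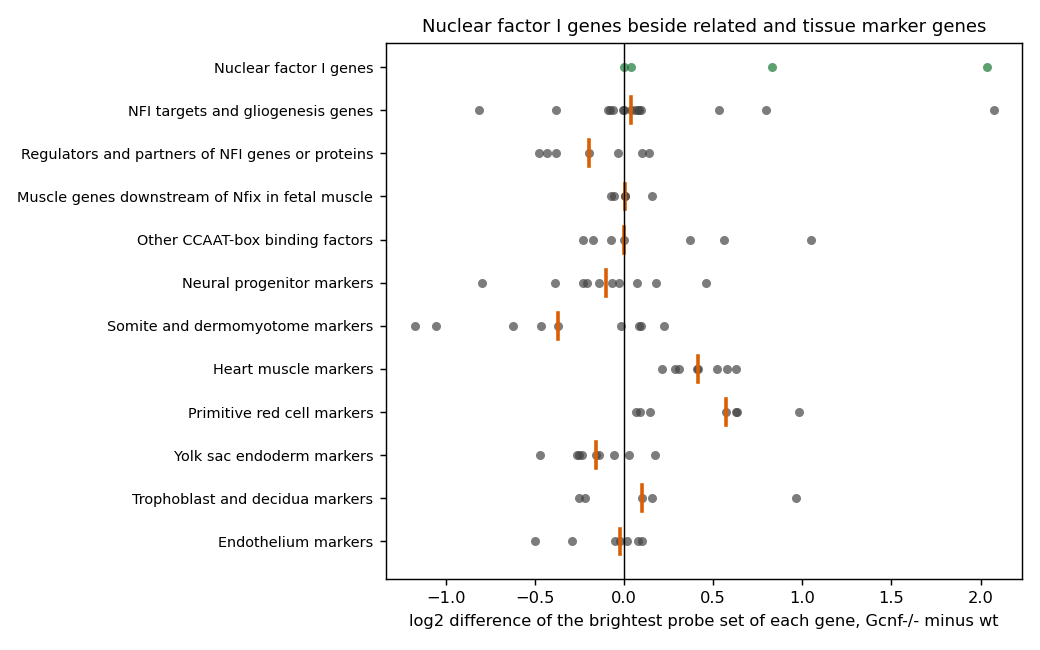
Log2 difference, Gcnf-/- minus wt (horizontal axis), of the brightest probe set of each gene (points) for the Nuclear factor I genes (green) and for lists of related and tissue marker genes (grey), with list medians as orange bars. Nfib at 2.04 and Fabp7 at 2.07 are the points furthest to the right, and list medians lie between -0.37 and 0.57.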

How the data were processed

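RNA of 4 whole embryos, 2 Gcnf-/- and 2 wt, was hybridised to Affymetrix mouse arrays. The deposited values are log2 signals, which the authors obtained by RMA (background correction, quantile normalisation, and 1 summary per probe set). The sources used here give neither a version nor a build. Quantile normalisation removes any shift shared by most transcripts. The number of arrays limits the precision.

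After 64 control probe sets were left out, 45037 were tested in limma 3.58.1 (R 4.3.3; lmFit, then eBayes), genotype being the one term, with Benjamini-Hochberg adjustment over all of them. The thresholds are those of the study's methods, an adjusted p of 0.05 and 2-fold. Replicates were taken as separate embryos, as the methods describe. The platform annotation named 1 gene for 34945 probe sets, several for 932 and none for 9160, and Entrez identifiers matched for 99.4% of the first. A gene was read from its brightest probe set by mean signal.

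Named were all NFI probe sets, the 3 measured neighbours on each side, the 5 genes nearest to Nfib in profile, and of each list up to 4 genes with the smallest p and any called gene, with some further members named after their values were seen. The members and the 11 lists (99 entries, 10 without a matched probe set) were chosen with earlier results of these data known. Start windows come from RefSeq, GRCm38.p6. The fit was tested on simulated arrays. Also tried were a block for replicate number, leaving out each array, brighter probe sets alone, repeated quantile normalisation, median centring, an intensity trend, robust eBayes, no fold threshold, no shared-sequence probe sets and the mean over a gene's probe sets.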

Additional observations from a re-analysis of the deposited data

How the results depend on the processing

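Leaving out 1 embryo at a time, with the spread of a single embryo taken from the other genotype, gave 0 to 0 Nuclear factor I probe sets called higher, and over all probe sets 0 to 7 higher and 0 to 2 lower (5241 to 7244 at an unadjusted p under 0.05 in limma). With the replicate number as a block, 0 Nuclear factor I probe sets were called in limma. Over all probe sets 0 were called higher and 0 lower, while 18.6% had an unadjusted limma p under 0.05. The labels do not say whether the numbers pair the embryos. Deviations of same-numbered embryos correlated at 0.06, which with 2 embryos per genotype cannot decide it. Brighter probe sets were those with a mean over all 4 arrays above 6.84. The 3 Nfib probe sets kept had wt means of 6.72, 6.15 and 5.76, so their Gcnf-/- signal carried them past that filter. All 3 were called, from which nothing is read. The 2 dimmer ones with a wide gap were not tested by construction. By non-overlap alone, added after the data were seen, 11 Nuclear factor I probe sets were higher, 6 of them of Nfib, and 1 lower. The same rule held for 23.5% of all probe sets above and 27.3% below, so nothing is read from these counts. Over all probe sets, an intensity trend called 61 lower, and without a fold threshold 324 were higher and 115 lower, by construction. Of the related and marker genes, 2 (Fabp7 and Cebpa) were called higher among brighter probe sets, with an intensity trend, with median centring and with repeated quantile normalisation, 2 higher and 1 lower with the mean over probe sets, 1 lower (Meox2) with an intensity trend, and 1 higher (Plac1) and 1 lower (Apcdd1) without a fold threshold; the cause was not tested. Averaged over probe sets, Nfib stood at 1.52, Nfia at 0.26 and Nfix at 0.0942, since their other probe sets had smaller or larger values, and with median centring Nfix stood at -0.0218. The direction of Nfix is therefore not settled. Nfic stayed between 0.01 and 0.07 in all 10 alternatives. Of the 23 probe sets, 18 had a mean signal below the array median, among them all of Nfix and most of Nfia and Nfic.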
